A study of Mesocricetus auratus and Mus musculus with 214 samples.

Results

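Polycomb repressive complex 2 (PRC2) methylates histone H3 at K27, a mark carried by silenced genes. Its core joins a catalytic subunit, EZH2 or its homologue EZH1, to EED, which binds the finished mark, to the scaffold SUZ12 and to a histone-binding WD40 protein, RBBP4 or RBBP7, while JARID2, AEBP2 and PHF19 are accessory subunits. EZHIP is an inhibitor of PRC2 known from mouse and human germ cells, and in mouse oocytes PRC2 sets a form of imprinting that passes to the embryo without DNA methylation.

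Transcripts of these 10 genes (Ezhip, Ezh1, Ezh2, Eed, Suz12, Rbbp4, Rbbp7, Jarid2, Aebp2 and Phf19) were followed through the female and male germ line of the golden hamster. They were chosen by name, as PRC2 subunits or inhibitor, and were found by their NCBI gene IDs among the 36133 annotated genes. The IDs are 110343731 for Ezhip, 101829787 for Ezh1, 101824592 for Ezh2, 101839032 for Eed, 101826279 for Suz12, 101822682 for Rbbp4, 101826886 for Rbbp7, 101841318 for Jarid2, 101830333 for Aebp2 and 101824728 for Phf19, on build BCM_Maur_2.0, whose annotation as used here places them on no named chromosome. RBBP4 and RBBP7 also belong to other chromatin complexes, so their levels are not those of PRC2 alone.

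The study knocked out the 4 PIWI genes, which encode the piRNA-binding proteins of the germ line, in LVG golden Syrian hamsters by CRISPR-induced frameshifts, and RNA was sequenced in 103 Smart-seq2 libraries. Single Piwil3-/- and WT oocytes were taken at the germinal vesicle (GV) stage (n = 3 and 3) and at metaphase II (MII; n = 4 and 4). Single embryos of Piwil3-/- or WT females mated with WT males, called maternal Piwil3-/- and WT embryos, were taken at 11 (n = 5 and 5), 34 (n = 3 and 4) and 54 hours post egg activation (h.p.e.a.; n = 2 and 2), written 11 h, 34 h and 54 h. A second MII set held Piwil2-/- (n = 3), Piwil4-/- (n = 2) and WT (n = 3) oocytes. Whole testes came from Piwil1-/-, Piwil2-/-, Piwil3-/-, Piwil4-/- and WT adults (n = 2 each) and from Piwil2-/-, Piwil4-/- and WT pups at 3 days post partum (d.p.p.; n = 2 each). Germ cells of adult Piwil1-/- and WT testes were sorted by Hoechst staining into spermatogonia with pre-leptotene cells (SPG/PL; n = 3 and 4), leptotene with zygotene cells (LZ; n = 3 and 4), pachytene cells (P; n = 4 and 4) and diplotene cells (D; n = 4 and 4). The sorted libraries are lettered A and B, which the labels do not explain, and were counted as separate samples. The p-values of the sorted cells rest on that count. A further WT series followed 7 stages, spermatogonia to mature sperm (n = 2 each).

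In the oocyte, embryo and sorted-cell libraries a value is the number of fragments per kilobase of gene per 10000 reads of the ERCC RNA spiked into the sample, and in whole testes per 1000. Such a value follows the amount of a transcript that Smart-seq2 captured from the sample, and whether capture was equal between stages was not tested. Fewer cells of a type and less RNA per cell cannot be told apart in bulk samples. The WT stage series was given in FPKM, fragments per kilobase and by library total, and its values do not give the depth. In the 89 spike-in libraries 80.9% to 100% of the low values of the listed genes came out as whole fragments (within 0.08), which gave 8111 to 978180 spike-in reads in oocytes and embryos, 29996 to 190471 in sorted cells and 7976 to 33650 in testes, and the fragment counts quoted below. Between 5667 and 16169 genes were above 0 in an oocyte or embryo. The knocked-out gene was lower than in WT, without overlap, in Piwil3-/- GV, MII and 11 h samples, in Piwil4-/- MII oocytes, in Piwil1-/- SPG/PL, P and D cells and in each testis knockout, while Piwil1 overlapped in LZ cells. Piwil2 overlapped between Piwil2-/- and WT MII oocytes (0.242 to 2.40 against 0.67 to 1.94), and Piwil3 was near 0 in both groups of embryos at 34 h. Of the WT LZ libraries, the pair numbered 1 stood apart from the pair numbered 2, and 2 WT libraries labelled 11 h carry titles with another time.

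Differences are on the log2(value + 1) scale with the standard error (SE) and the adjusted p of a limma fit over all genes tested, and a gene called at an adjusted p under 0.05 is said to have risen or fallen. A member that passed the filter on low values only through the group where it is high had to differ, and such members are named where they were called. Beside the counts stands the share of all tested genes that were called, the background.

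Ezhip was among the most abundant transcripts of the GV oocyte. It measured 10563, 10099 and 9774 in the Piwil3-/- GV oocytes and 8992, 9535 and 8777 in the WT GV oocytes, backed by 14014 to 20472 fragments in each, and ranked 16 to 25 among all genes there. At MII it measured 3526, 3159, 3285 and 4235 in Piwil3-/- oocytes and 5717, 4124, 3244 and 4983 in WT oocytes. At 11 h it measured 4358, 2862, 3649, 3155 and 3770 in maternal Piwil3-/- embryos and 3137, 1563, 1522, 4488 and 3057 in WT embryos. Every library of these 3 stages thus held Ezhip above 1000, and the genotypes overlapped at MII and at 11 h.

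By 34 h nearly all of it was gone. Ezhip measured 5.80, 0.186 and 7.65 in maternal Piwil3-/- embryos (541, 33 and 666 fragments) and 2.54, 3.05, 6.26 and 0.295 in WT embryos (358, 252, 529 and 33 fragments). At 54 h it measured 1.29 and 0.397 in maternal Piwil3-/- embryos and 0.804 and 1.09 in WT embryos. The libraries at 34 and 54 h overlapped between genotypes at both times, and all lay far below every earlier library.

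Ordered by group mean over the female libraries, Ezhip was highest in Piwil3-/- GV oocytes, followed by WT GV oocytes, WT MII oocytes, Piwil4-/- MII oocytes, maternal Piwil3-/- embryos at 11 h, Piwil3-/- MII oocytes, WT embryos at 11 h, the WT MII oocytes of the second set, Piwil2-/- MII oocytes and, far below, the embryos at 34 and 54 h. The neighbours WT GV and WT MII, and Piwil2-/- MII and the embryos at 34 h, did not overlap. The neighbouring GV groups did not overlap either, with every Piwil3-/- library above every WT library. The difference was 0.16 (SE 0.51, adjusted p = 1.0 by limma). That SE rests on a spread shared with the MII oocytes and the embryos, so it is not the spread between GV oocytes alone. The MII and 11 h groups each overlapped with the next in the order.

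Read per length, transcripts of Ezhip exceeded those of the enzymes that its product inhibits by a wide margin until 11 h. Protein levels of these genes were not measured. The level of Ezhip divided by the summed levels of Ezh1 and Ezh2 had a median of 68.3 in Piwil3-/- GV oocytes (65.9 to 78.7), against 83.0 in WT GV oocytes (67.6 to 109). At MII the median was 51.9 in Piwil3-/- oocytes (44.2 to 70.8), against 86.2 in WT oocytes (48.2 to 160). At 11 h it was 63.4 in maternal Piwil3-/- embryos (52.4 to 87.8), against 67.1 in WT embryos (57.6 to 147). The ratio overlapped between genotypes at each of these stages. At 34 h it lay between 0.105 and 1.78 in maternal Piwil3-/- embryos and between 0.354 and 5.38 in WT embryos, above 1 in 2 of 3 and in 3 of 4 libraries.

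**Figure D1:**
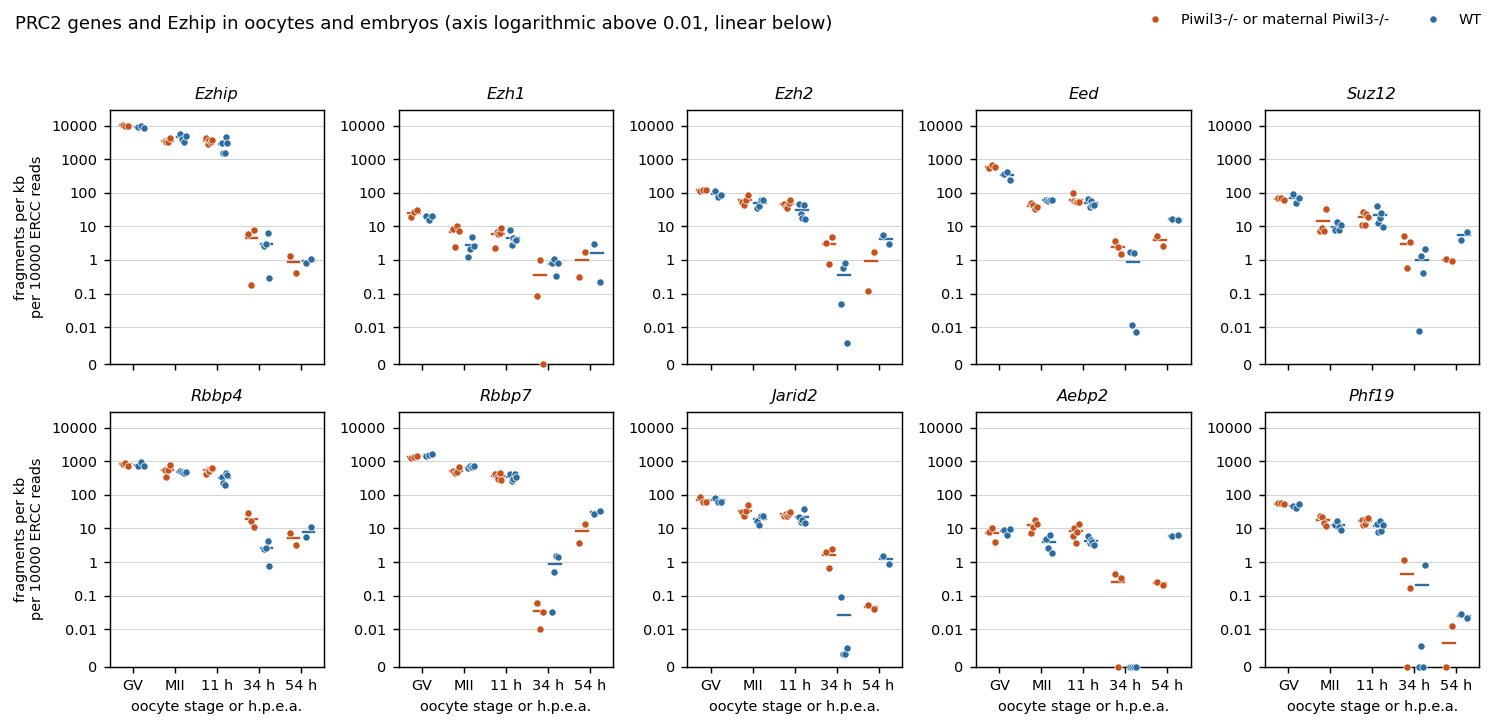
Levels of the 10 PRC2 genes (fragments per kb per 10000 spike-in reads; symmetric log axis) in each oocyte and embryo library, Piwil3-/- or maternal Piwil3-/- left of WT at each stage; each point is 1 library and the line is the group mean. Ezhip stands at 1522 to 10563 up to 11 h and below 8 at 34 h, and Rbbp4 at 34 h lies at 11.4 to 29.3 in maternal Piwil3-/- embryos, above all 4 WT embryos.

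After Ezhip, the order of the means in WT GV oocytes was Rbbp7, Rbbp4, Eed, Ezh2, Suz12, Jarid2, Phf19, Ezh1 and Aebp2. The histone-binding pair averaged 1521 ± 101 for Rbbp7 and 801 ± 112 for Rbbp4 (SD, n = 3). Eed, whose product binds the mark, averaged 341 ± 91.3 and the catalytic Ezh2 90.4 ± 20.4, while Ezh1 averaged 18.5 ± 3.01 and Aebp2 8.47 ± 1.89 (SD, n = 3). Ezh2, Suz12 and Jarid2 overlapped with their neighbours in this order, and the ranges of the other neighbours were apart.

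All 10 genes fell between WT GV and WT MII oocytes on the spike-in scale, 7 of them turning higher under both rescalings given below, where 90.9% of the 12066 genes tested fell and the median of all genes was -2.69. The count is therefore near its background, and the members' median of -1.51 was a smaller fall than that of all genes. The largest folds were those of the scaffold Suz12, at 9.88 ± 2.69 in MII and 69.3 ± 20.5 in GV oocytes (7.01-fold lower), of Ezh1, at 2.70 ± 1.6 in MII and 18.5 ± 3.01 in GV oocytes (6.84-fold lower), and of Eed, at 59.2 ± 2.00 in MII and 341 ± 91.3 in GV oocytes (5.77-fold lower; adjusted p = 4e-08 by limma; SD, n = 4 and 3). Ezhip averaged 4517 ± 1070 in MII and 9101 ± 391 in GV oocytes (log2 difference -1.04, SE 0.48, adjusted p = 0.0402 by limma).

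Rbbp4 measured 745, 931 and 727 in WT GV and 502, 474, 445 and 488 in WT MII oocytes. Ezhip measured 8777 to 9535 in WT GV and 3244 to 5717 in WT MII oocytes. Neither gene overlapped between the stages, nor did Ezh2, while Aebp2 did. The calls of these members, which fell least, were lost in fits with single libraries left out. The p-values use a spread shared with the other oocytes and the embryos, so they do not give the spread of these oocytes alone. With 1 of the 7 libraries left out, limma no longer called Rbbp4 in 7 cases, Ezhip in 5, Ezh2 in 4 and Aebp2 in 1 (without WT MII replicate 5, adjusted p = 0.0562), with adjusted p-values reaching 0.141 for Rbbp4, 0.099 for Ezhip and 0.151 for Ezh2. When each library was rescaled to the same total, or by median ratios, the direction of Ezhip, Ezh2, Rbbp4, Rbbp7, Jarid2, Aebp2 and Phf19 turned, and Rbbp4 was the only member called, as higher in MII oocytes (1.58 and 1.79). The histone-binding pair and the catalytic pair also shifted in composition, a measure that does not depend on the scaling. Ezh2 made up 95.1% of Ezh1 and Ezh2 together in MII oocytes against 82.9% in GV oocytes, and Rbbp4 made up 41.3% of Rbbp4 and Rbbp7 together in MII oocytes against 34.4% in GV oocytes. Neither share overlapped between the stages (exact permutation test, two-sided p = 0.0286 each, the smallest possible, adjusted p = 0.0923 over 42 share tests).

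Of the 10 members, Rbbp7 alone fell between WT MII oocytes and WT embryos at 11 h, to 425, 265, 288, 431 and 350 in WT embryos, against 621, 702, 670 and 721 in WT MII oocytes (log2 difference -0.97, SE 0.27, adjusted p = 0.00803 by limma), with no overlap. It was 1 of 10 members, where 6.61% of 8272 genes fell, and it was not called under either rescaling. Ezh2 made up 85.6% of Ezh1 and Ezh2 in WT embryos against 95.1% in WT MII oocytes, without overlap (exact permutation test, p = 0.0159, adjusted p = 0.0923). Leaving out 1 WT embryo at a time brought a second member below the threshold for the library titled 8PEA-1 and for replicate 1, and without both libraries titled 8PEA the second was Rbbp4 (-0.96, adjusted p = 0.0315 by limma).

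All 10 genes fell between 11 and 34 h in WT embryos (Ezh1 turned under both rescalings), where 86.4% of 7478 genes fell and the median of all genes was -2.96. Only Ezhip, Rbbp4 and Suz12 had libraries above the filter at both times, and the others passed it through the 11 h embryos alone, so the count supports nothing further, although all 10 were also called with no filter. Ezhip was 907-fold lower (3.04 ± 2.46 at 34 against 2754 ± 1243 at 11 h, SD, n = 4 and 5; adjusted p = 5.71e-20 by limma). Jarid2, which helps PRC2 bind chromatin, was 837-fold lower, Rbbp7 399-fold, Rbbp4 125-fold, Ezh2 82.9-fold, Eed 58.6-fold, Phf19 56.5-fold and Suz12 21.8-fold lower. Single embryos at 34 h carried part of these sizes. Without WT replicate 1 the fold was 5540 for Jarid2 (on 1, 1 and 2 fragments at 34 h) and 88.9 for Eed, without WT replicate 4 it was 1400 for Ezhip and 144 for Ezh2, and without WT replicate 5 it was 36.1 for Suz12, while Phf19 then had 1 fragment in the 3 embryos together. Ezh1 changed least, at 0.809, 1.04, 0.343 and 0.828 at 34 h against 2.79 to 7.56 at 11 h (6.10-fold lower), and it was higher at 34 h under both rescalings (0.54 and 0.66), where it was not called. Aebp2 had 0 fragments in all 4 WT embryos at 34 h, which allows a mean of up to 0.0174 with 3 fragments per library, so that it was at least 243-fold lower than its mean of 4.23 at 11 h. Ezh2 made up 28.1% of Ezh1 and Ezh2 at 34 against 85.6% at 11 h, without overlap (exact permutation test, p = 0.00794, adjusted p = 0.0923).

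Rbbp7, Eed, Ezh2, Suz12, Jarid2 and Rbbp4 (the last turning under both rescalings) rose between 34 and 54 h in WT embryos, 6 of the 9 members tested, where 40.8% of 7982 genes rose and the median of all genes was 0.80. Rbbp7 measured 26.3 and 34.3 at 54 against 0.0327, 0.501, 1.54 and 1.46 at 34 h (34.3-fold; log2 difference 4.14, SE 0.33, adjusted p = 4.32e-11 by limma). Eed measured 17 and 15.9 at 54 against 1.71, 0.0119, 1.65 and 0.00878 at 34 h (19.5-fold; 3.41, SE 0.36, adjusted p = 1.07e-08 by limma). Neither gene overlapped between the times, and both stayed called under both rescalings, but the fold of Eed was 29.5 without WT replicate 1 at 34 h. Aebp2 measured 5.89 and 6.22 at 54 h, at least 348-fold above what 0 fragments at 34 h allow, and was not tested.

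Ezh2 averaged 4.23 ± 1.89 at 54 and 0.360 ± 0.398 at 34 h (11.7-fold, or 20.5-fold without WT replicate 4 at 34 h, adjusted p = 0.000671 by limma) and was called under median ratios but not at the same total. The calls of Suz12 (5.52-fold, or 9.17-fold without WT replicate 5 at 34 h) and Rbbp4 (3.16-fold) were lost without WT replicate 5 at 54 h (adjusted p = 0.14 and 0.156), and that of Jarid2 (1.21 against 0.0262) without WT replicate 1 at 54 h (adjusted p = 0.131 by limma). Suz12 and Jarid2 were not called under either rescaling, and Rbbp4 turned slightly lower under both (-0.21 and -0.02). Ezhip did not follow, at 0.948 ± 0.204 at 54 against 3.04 ± 2.46 at 34 h (adjusted p = 0.247 by limma), and was called lower under both rescalings (-1.78 and -1.67).

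**Figure D2:**
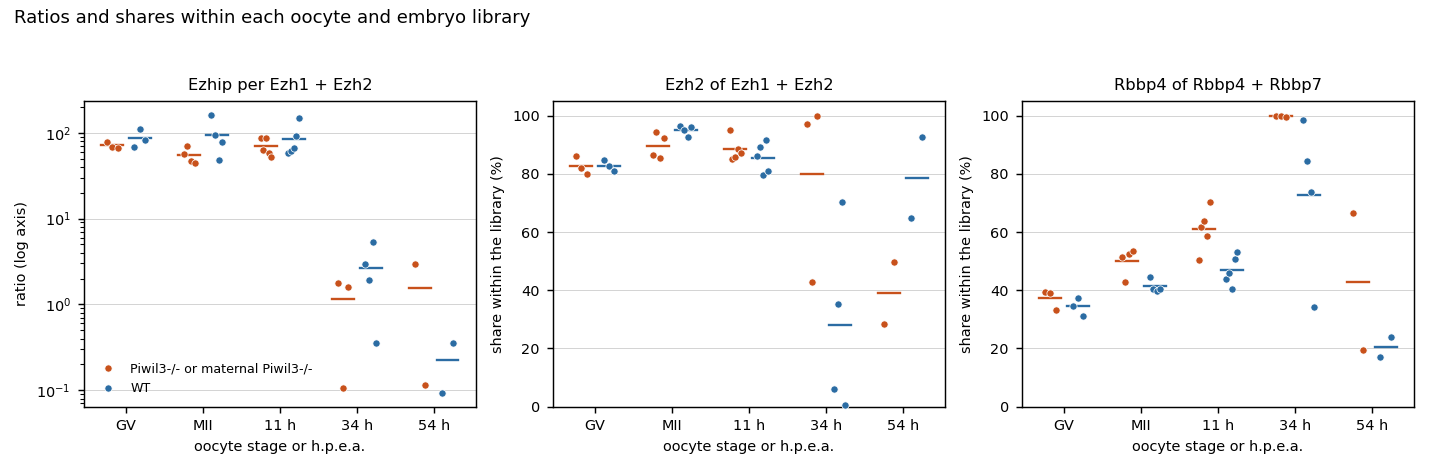
Ezhip per Ezh1 + Ezh2 (ratio of levels, log axis) and the shares of Ezh2 in Ezh1 + Ezh2 and of Rbbp4 in Rbbp4 + Rbbp7 (percent of summed levels) in each oocyte and embryo library, Piwil3-/- or maternal Piwil3-/- left of WT at each stage; each point is 1 library and the line is the group mean. At 34 h the Rbbp4 share is at least 99.7% in maternal Piwil3-/- embryos and 34.1% to 98.7% in WT embryos, and the Ezhip ratio lies below 6 in all.

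Loss of Piwil3 was examined next at each stage. In GV oocytes none of the 10 members was called by limma, against 2.19% of 13534 genes, and 1 had an unadjusted p under 0.05. That member was Eed, at 536, 653 and 576 in Piwil3-/- and 356, 425 and 244 in WT GV oocytes (log2 difference 0.82, SE 0.35, adjusted p = 0.425 by limma). The groups of Eed did not overlap, nor did those of Ezhip and Ezh2, each at the smallest p that 3 against 3 allow (exact permutation test, p = 0.1). The share of all genes without overlap is not given, so nothing further is drawn from these 3.

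In MII oocytes the accessory subunit Aebp2 rose. It measured 7.38, 11.0, 17.9 and 13.7 in Piwil3-/- MII oocytes (91 to 234 fragments) and 4.80, 2.71, 6.51 and 1.87 in WT MII oocytes (23 to 67 fragments), without overlap (3.14-fold; log2 difference 1.48, SE 0.34, adjusted p = 0.00862 by limma). It was 1 of 10 members, where 3.11% of 7502 genes rose, and it was also called against the WT MII oocytes of the second set (1.77, adjusted p = 0.000894 by limma). It was not called with a pseudocount of 0.1, with either rescaling, or when no other group entered the fit (adjusted p = 0.0844 by limma). Without Piwil3-/- replicate 2, 2 members were called. Eed was lower in every Piwil3-/- MII oocyte, at 51, 44.2, 33 and 36.7 against 59.3, 56.5, 59.5 and 61.4 in WT MII oocytes, but was not called (adjusted p = 0.343 by limma), and at GV its order was the reverse.

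At 11 h none of the 10 members was called, against 1.59% of 8747 genes, and 3 had an unadjusted p under 0.05. Rbbp4 came closest, at 427, 547, 525, 648 and 635 in maternal Piwil3-/- embryos against 334, 225, 195, 445 and 397 in WT embryos (log2 difference 0.86, SE 0.29, adjusted p = 0.113 by limma). Only maternal Piwil3-/- replicate 1 fell within the WT range. Rbbp4 was called without the 2 WT libraries titled 8PEA (1.17, adjusted p = 0.0222 by limma), and 1 member was called without 8PEA-1 alone. Its share of Rbbp4 and Rbbp7 was 61.0% in maternal Piwil3-/- and 46.8% in WT embryos, with overlap (exact permutation test, p = 0.0238, adjusted p = 0.0923).

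At 34 h, Rbbp4 rose 7.51-fold, and Jarid2, Ezh2 and Eed also rose, while Rbbp7 fell. The 4 that rose and 1 that fell stand among 9 members tested, where 14.8% of 8032 genes rose and 21.1% fell. Rbbp4 measured 29.3, 16.7 and 11.4 in maternal Piwil3-/- embryos (1275 to 3799 fragments) and 2.42, 2.71, 4.32 and 0.753 in WT embryos (108 to 467 fragments). The groups were well apart (log2 difference 2.51, SE 0.35, adjusted p = 6.64e-07 by limma; exact permutation test, p = 0.0286, the smallest possible), and the call held in each fit with 1 library left out (2.17 to 2.81). Jarid2 measured 1.99, 0.660 and 2.38 in maternal Piwil3-/- embryos (652, 412 and 728 fragments) and 0.0927, 0.00343, 0.00336 and 0.00507 in WT embryos (46, 1, 1 and 2 fragments). It too did not overlap (64-fold, or 423-fold without WT replicate 1; 1.32, SE 0.31, adjusted p = 0.000856 by limma) and was called in every fit with 1 library left out.

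The partner of Rbbp4 moved the other way. Rbbp7 measured 0.0593, 0.0104 and 0.0318 in maternal Piwil3-/- embryos (6, 2 and 3 fragments) and 0.0327, 0.501, 1.54 and 1.46 in WT embryos (5, 45, 141 and 177 fragments). WT replicate 1 lay within the maternal Piwil3-/- range, and the call (log2 difference -0.77, SE 0.30, adjusted p = 0.0401 by limma) was lost in 5 of 7 fits with 1 library left out, namely without any of the 3 maternal Piwil3-/- replicates (1, 3 and 5) and without WT replicates 4 and 5 (adjusted p 0.0733 to 0.141), and with no filter (adjusted p = 0.0587). Rbbp4 thus made up 99.8% of the pair in maternal Piwil3-/- embryos and 72.7% in WT embryos, without overlap (exact permutation test, p = 0.0857, adjusted p = 0.2).

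Among the core subunits, Ezh2 measured 3.17, 0.756 and 4.75 in maternal Piwil3-/- embryos and 0.0506, 0.564, 0.820 and 0.00578 in WT embryos. The groups overlapped, with maternal Piwil3-/- replicate 3 inside the WT range (log2 difference 1.40, SE 0.39, adjusted p = 0.00516 by limma), and the call was lost without maternal Piwil3-/- replicate 5 (1.04, adjusted p = 0.0606). Eed measured 3.58, 2.43 and 1.48 in maternal Piwil3-/- embryos and 1.71, 0.0119, 1.65 and 0.00878 in WT embryos. It overlapped as well (1.04, SE 0.32, adjusted p = 0.0107 by limma), and its call was lost without maternal Piwil3-/- replicate 1 and without WT replicates 3 and 5 (adjusted p = 0.0781, 0.0528 and 0.0565). Suz12, at 5.14, 0.581 and 3.49 in maternal Piwil3-/- and 0.00892, 1.36, 0.406 and 2.15 in WT embryos, was not called, but was called higher under both rescalings (1.25 and 0.94). Ezh1 measured 0.0875, 1.01 and 0 in maternal Piwil3-/- embryos and 0.809, 1.04, 0.343 and 0.828 in WT embryos, and was not called either.

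The low accessory subunits were detected in part of the embryos. Aebp2 had 71, 0 and 49 fragments in maternal Piwil3-/- embryos and 0 in each of the 4 WT embryos, and Phf19 had 237, 0 and 33 fragments in maternal Piwil3-/- embryos and 0, 1, 0 and 209 in WT embryos. Ezhip made up 48.7% of Ezhip and Ezh2 together in maternal Piwil3-/- embryos and 92.2% in WT embryos, without overlap (exact permutation test, p = 0.0286, adjusted p = 0.0923). With only the 2 groups in the fit, Rbbp4 and Jarid2 were the members still called. Leaving out maternal Piwil3-/- replicate 1 or 5 or WT replicate 5 left 3 members called.

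Markers of the oocyte moved with these differences. The summed level of 7 oocyte markers was 84.7 to 186 in maternal Piwil3-/- and 6.87 to 28.8 in WT embryos at 34 h, with Figla at 0 in the maternal Piwil3-/- libraries, and that of 6 germ cell markers was 33.1 to 36.3 against 0.541 to 2.42. All 7 granulosa and cumulus markers were at 0 in both. The part of the oocyte transcripts in the differences of the PRC2 genes was not tested.

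At 54 h the members that differed were lower in maternal Piwil3-/- embryos. Aebp2, Rbbp7, Eed, Ezh2 and Jarid2 fell, 5 of the 10, where 22.6% of 9407 genes fell and the median of all genes was -0.46. Aebp2 measured 0.253 and 0.214 in maternal Piwil3-/- embryos (23 and 13 fragments) and 5.89 and 6.22 in WT embryos (316 and 216 fragments), without overlap (26-fold lower; log2 difference -2.52, SE 0.47, adjusted p = 0.000147 by limma). Rbbp7 measured 3.81 and 13.1 against 26.3 and 34.3 in WT embryos (-1.91, SE 0.38, adjusted p = 0.000318), and Eed 5.22 and 2.68 against 17 and 15.9 in WT embryos (-1.87, SE 0.42, adjusted p = 0.00105 by limma). All 3 genes were apart between the genotypes, but so were Ezh2, Jarid2, Suz12 and Phf19, and the share of all genes apart is not given. These 3 kept their direction with 1 library left out (-2.55 to -2.48, -2.69 to -1.13 and -2.25 to -1.49, in the order above). Only Aebp2 was called under the rescalings (-1.99 and -1.98), and Eed was not called with a pseudocount of 0.1 (adjusted p = 0.0615 by limma).

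The remaining calls at 54 h were lost with single embryos left out. Ezh2 measured 0.123 and 1.73 in maternal Piwil3-/- embryos and 5.56 and 2.89 in WT embryos (-1.53, adjusted p = 0.0256 by limma) and was lost without maternal Piwil3-/- replicate 2 and without WT replicate 1 (adjusted p = 0.335 and 0.205 by limma), each of which left 3 members called. Jarid2 had 10 and 5 fragments in maternal Piwil3-/- and 167 and 63 in WT embryos (-1.06, adjusted p = 0.0435 by limma) and was lost without any of the 4 libraries (adjusted p 0.0658 to 0.231). Suz12 (1.06 and 0.902 against 4.01 and 6.82 in WT embryos, adjusted p = 0.0578 by limma), Rbbp4 (7.58 and 3.17 against 5.43 and 10.7), Ezh1 (0.310 and 1.74 against 3.03 and 0.223), Ezhip and Phf19 were not called. Fitted with the 2 groups alone, which leave 2 embryos a side, no member was called. The 7 oocyte markers summed to 4.94 to 12.6 in maternal Piwil3-/- and 8.24 to 14 in WT embryos at this time. The 6 germ cell markers summed to 3.62 to 12.9 in maternal Piwil3-/- and 42.3 to 56.9 in WT embryos, and the 6 spermatocyte markers, 4 of them at 0 in both WT embryos, to 2.98 to 9.77 against 41.8 to 51.4 in WT embryos. Their part in the lower PRC2 values was not tested.

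**Figure D3:**
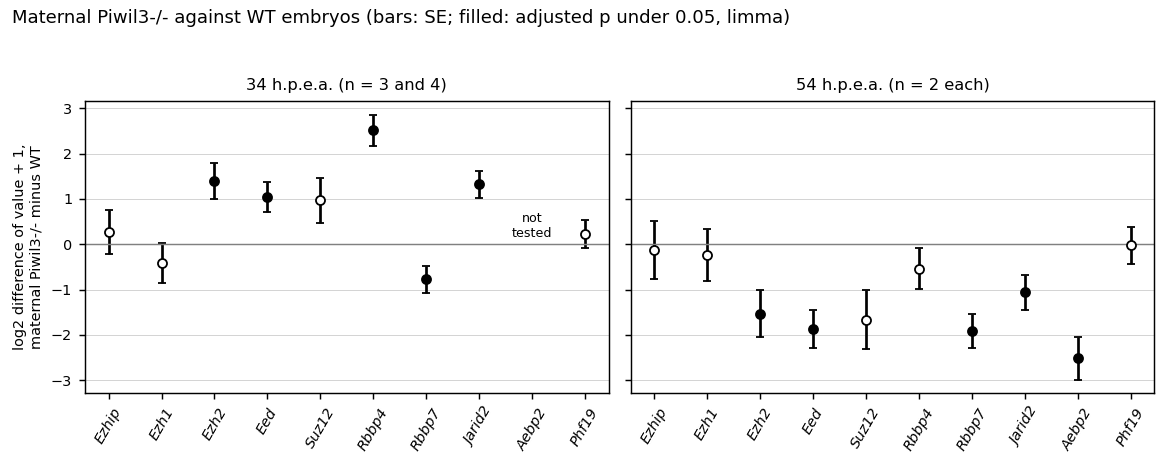
Log2 difference of value + 1, maternal Piwil3-/- minus WT embryos, of each PRC2 gene at 34 h and at 54 h, with the standard error of the limma fit as the bar; filled points are called at an adjusted p under 0.05. Rbbp4 is highest at 34 h (2.51) and Aebp2, not tested at 34 h, is lowest at 54 h (-2.52).

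The change between times differed between the genotypes, as tested by the interaction. Between 11 and 34 h, Rbbp4 fell less in maternal Piwil3-/- than in WT embryos (difference of the changes 1.66, SE 0.45, adjusted p = 0.00653 by limma), 1 of 10 members where 9.73% of 7372 genes were called in that direction. Leaving out maternal Piwil3-/- replicate 3 or WT replicate 1 at 34 h gave 2 called members, and the rescalings gave 6 and 4. Between 34 and 54 h the change was lower in maternal Piwil3-/- embryos for 6 of 10 members, where 19.8% of 7949 genes were called so. These were Rbbp4 (-3.05, adjusted p = 9.61e-05), Ezh2 (-2.93, adjusted p = 0.00068), Eed (-2.91, adjusted p = 6.98e-05), Aebp2 (-2.83, adjusted p = 0.000365), Suz12 (-2.63, adjusted p = 0.0128) and Jarid2 (-2.38, adjusted p = 0.000479, all by limma). The same 6 were called under both rescalings, and Suz12 was lost without WT replicate 5 at 54 h (adjusted p = 0.0751 by limma). Both tests use the same 34 h libraries.

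Of the Polycomb genes outside the 10, the 24 listed PRC1 genes, whose products ubiquitinate histone H2A and compact chromatin, stood near the background at 34 h. Of 17 tested, 3 rose and 3 fell in maternal Piwil3-/- embryos, where 14.8% of all genes rose and 21.1% fell. Rnf2, the catalytic ring protein, averaged 42.5 ± 9.79 in maternal Piwil3-/- and 1.03 ± 0.51 in WT embryos (SD, n = 3 and 4; log2 difference 4.44, adjusted p = 1.5e-11 by limma). The PRC1 subunits Pcgf1 (0.213 ± 0.341 against 9.48 ± 5.18 in WT) and Pcgf5 (0.255 ± 0.438 against 8.52 ± 5.31 in WT) fell. At 54 h 3 of 17 rose and 1 fell, where 4.46% of all genes rose and 22.6% fell, and Pcgf1 was then the higher in maternal Piwil3-/- embryos (21.1 ± 1.42 against 5.44 ± 2.04 in WT, SD, n = 2 each; adjusted p = 0.0016 by limma). Kdm6a, which encodes an H3K27 demethylase, fell at 54 h (0.481 against 5.10 in WT embryos, adjusted p = 0.00355 by limma). Counts for the other demethylase genes are not given, so nothing is drawn for them as a set. In GV and MII oocytes and at 11 h none of the 20, 11 and 13 PRC1 genes tested was called.

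Piwil2 and Piwil4 were examined in MII oocytes of the second set. Ezhip measured 1579, 1520 and 1055 in Piwil2-/- and 3168 and 4775 in Piwil4-/- MII oocytes, and 1262, 2500 and 2821 in the WT oocytes of that set. The Piwil4-/- oocytes lay above all WT oocytes of that set and the Piwil2-/- oocytes overlapped with them. No member was called in Piwil2-/- oocytes, where 0.227% of 8818 genes were called and no member had an unadjusted p under 0.05. None was called in Piwil4-/- oocytes, where 20.4% of 9189 genes were called (2.76% higher and 17.7% lower) and 1 member, Ezhip, had an unadjusted p under 0.05 (log2 difference 0.91, SE 0.36, adjusted p = 0.0879 by limma). Ezhip was called higher in Piwil4-/- oocytes under both rescalings. Against the WT MII oocytes of the first set, Piwil2-/- oocytes had lower Ezhip (-1.70, adjusted p = 0.00469) and Rbbp7 (-1.20, adjusted p = 0.00337 by limma). Ezhip of Piwil4-/- oocytes then turned to -0.18 (adjusted p = 0.927 by limma). Of the Piwil4-/- oocytes, that at 4775 lay inside the range of that WT set (3244 to 5717) and that at 3168 just below it. The labels do not say which WT oocytes were handled with which knockout.

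In the male germ line Ezhip was close to absent. It had 0 fragments in every sorted P and D library of either genotype, which allows up to 0.263 to 0.355 in Piwil1-/- P, 0.386 to 0.552 in Piwil1-/- D, 0.225 to 0.326 in WT P and 0.419 to 0.504 in WT D cells, and 0 to 4 fragments in each SPG/PL and LZ library. In the WT stage series it did not exceed 0.470 FPKM and was listed at 0 in zygotene and pachytene cells. These limits cover counting error only.

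The 2 histone-binding subunits moved in opposite directions at pachytene. In WT cells Rbbp4 measured 332, 299, 282 and 339 in P against 40.2, 62.2, 58.4 and 55.9 in SPG/PL (5.78-fold; log2 difference 2.52, SE 0.22, adjusted p = 8.21e-12 by limma). Rbbp7 measured 0.301, 0.196, 0.692 and 0.905 in P (3, 2, 10 and 10 fragments) against 20.7, 33.1, 32.6 and 30.6 in SPG/PL (55.8-fold lower; -4.31, SE 0.26, adjusted p = 2e-15 by limma). No library of either gene lay within the range of the other stage, and both calls kept their direction under both rescalings. Rbbp7 passed the filter only through SPG/PL cells and so had to differ. Rbbp4 made up 99.8% of the pair in P and 65.0% in SPG/PL cells (exact permutation test, p = 0.0286, adjusted p = 0.0923). In D cells Rbbp7 had 0, 0, 0 and 2 fragments, while Rbbp4 was at 302 to 332.

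The catalytic pair shifted as well. Ezh2 measured 11.8, 8.75, 9.88 and 10.9 in WT P against 1.93, 2.78, 1.87 and 2.95 in WT SPG/PL cells (4.34-fold; log2 difference 1.75, SE 0.17, adjusted p = 1.16e-10 by limma), without overlap. Ezh1 averaged 0.637 ± 0.205 in P and 2.50 ± 0.549 in SPG/PL cells (SD, n = 4 each; not tested across all genes because of its low level; exact permutation test, p = 0.0286). Ezh2 made up 94.3% of the pair in P against 48.7% in SPG/PL cells. Jarid2 fell, to 1.70 ± 0.129 in P against 6.63 ± 0.818 in SPG/PL cells (-1.49, adjusted p = 6.27e-12 by limma). Jarid2 passed the filter only through SPG/PL cells and so had to differ.

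Of the 5 members tested between WT P and SPG/PL cells, Rbbp4, Ezh2 and Eed (the last turning under both rescalings) rose and Rbbp7 and Jarid2 fell, where 76.8% of 8120 genes rose, 13.9% fell and the median of all genes was 1.6. Rbbp7 and Jarid2 passed the filter only through SPG/PL cells and were also called with no filter. Eed (11.3 ± 1.58 in P against 7.71 ± 1.18 in SPG/PL, adjusted p = 0.0384 by limma) turned lower in P under both rescalings (-1.22 and -0.89). Its call was lost without P library 2A or 2B and without SPG/PL library 1A or 2A (adjusted p 0.0676 to 0.113). Ezh2 was not called when libraries were rescaled to the same total, and 8 members, Eed not among them, were called with no filter on low values. Between WT P and D, Eed alone fell, to 7.27, 3.30, 6.41 and 4.38 in D against 10.5, 9.62, 12.1 and 13.1 in P (-0.998, SE 0.23, adjusted p = 0.000362 by limma), 1 of 4 members tested where 9.16% of 8333 genes fell. Rbbp4 and Ezh2 also fell in D under both rescalings.

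**Figure D4:**
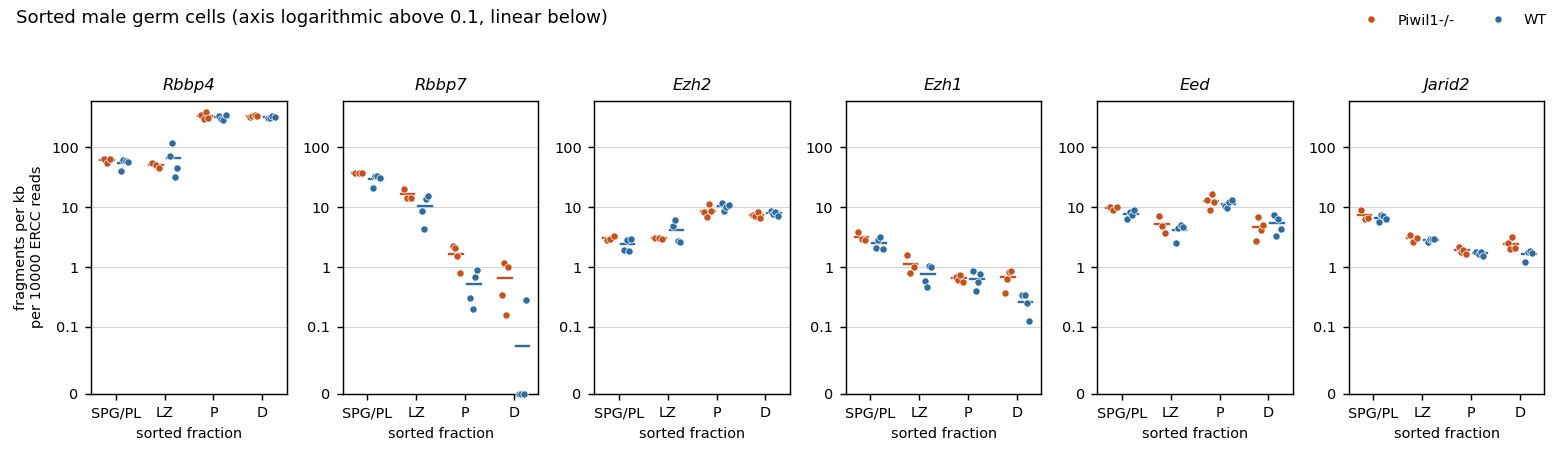
Levels of Rbbp4, Rbbp7, Ezh2, Ezh1, Eed and Jarid2 (fragments per kb per 10000 spike-in reads; symmetric log axis) in each sorted germ cell library, Piwil1-/- left of WT in each fraction; each point is 1 library and the line is the group mean. Rbbp4 lies at 282 to 389 in P and D cells of both genotypes, while Rbbp7 lies below 3 there.

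The WT stage series, normalised in another way, followed the same genes over 7 stages. Rbbp7 measured 205 and 201 FPKM in spermatogonia, 170 and 181 in pre-leptotene, 141 and 135 in leptotene, 59.1 and 65.3 in zygotene, 1.16 and 1.55 in pachytene cells, 2.06 and 2.75 in round sperm and 209 and 152 in mature sperm. Rbbp4 measured 322 and 343 FPKM in spermatogonia, 282 and 248 in zygotene, 550 and 509 in pachytene cells, 2.01 and 12.1 in round sperm and 56.7 and 35.9 in mature sperm. Rbbp7 thus declined before pachytene and Rbbp4 after it, and their share in favour of Rbbp4 was 62.1% in spermatogonia, 80.9% in zygotene, 99.7% in pachytene, 65.5% in round sperm (49.5% and 81.6%) and 20.3% in mature sperm. Ezh2 made up 25.0% of Ezh1 and Ezh2 in spermatogonia, 73.2% in zygotene, 94.2% in pachytene cells, 98.4% in round sperm and 49.2% in mature sperm.

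Between spermatogonia and pachytene cells, Ezh2 rose and Rbbp7, Ezh1, Jarid2, Phf19 and Eed fell, 1 and 5 of 9 tested, where 24.1% of 11903 genes rose and 45% fell. Ezh1, Rbbp7 and Phf19 passed the filter through spermatogonia alone, and with no filter all of these but Eed were called. Rbbp7 was 150-fold lower in pachytene cells than in spermatogonia (log2 difference -6.44, adjusted p = 3.2e-09 by limma), Ezh1 23.3-fold lower and Jarid2 12-fold lower. The call of Eed (-1.10) was lost without any 1 of the 4 libraries (adjusted p 0.0674 to 0.128), and that of Ezh2 (0.99) without spermatogonia replicate 1 or pachytene replicate 2 (adjusted p = 0.104 and 0.0643 by limma). With spermatogonia replicate 1 left out 1 member was called, and with replicate 2 left out 2 were, since genes high in spermatogonia alone then failed the filter on low values.

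Between pachytene cells and round sperm, Rbbp4 was 74.8-fold lower in round sperm (43.6-fold and 263-fold without either round sperm library; -6.40, adjusted p = 5.53e-07) and Eed 34.6-fold lower (0.675 and 0.633 against 23.9 and 21.3 FPKM in pachytene cells; adjusted p = 4.58e-06 by limma). Aebp2 and Ezh2 also fell, and Jarid2 rose (11.9 and 9.38 in round sperm against 3.58 and 3.89 FPKM in pachytene cells; 1.29, adjusted p = 0.001 by limma), as did Rbbp7 (0.53, adjusted p = 0.0219). In all, 4 of 7 tested fell and 2 rose, where 41.4% of 11990 genes fell and 40.8% rose. Eed, Aebp2 and Suz12 passed the filter through pachytene cells alone and Rbbp7 through round sperm alone, and the same 6 were called with no filter. Without pachytene replicate 1, 3 members were called, and Rbbp7 was not (adjusted p = 0.133 by limma).

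In mature sperm, 6 of the 8 members tested rose and Jarid2 fell relative to round sperm, where 46.5% of 16101 genes rose and 31.8% fell. Rbbp7 was 75.1-fold higher (5.73, adjusted p = 4.37e-09 by limma) and Ezh1 62.2-fold higher (7.0 and 3.63 against 0.105 and 0.0658 FPKM in round sperm). Ezh1, Eed, Suz12 and Aebp2 passed the filter through mature sperm alone, and all 4 were called with no filter. Without either mature sperm library, 3 members were called, since fewer then passed the filter. The mature sperm libraries also held markers of other cells, with 3 macrophage markers summing to 102 to 172 FPKM against 3.08 to 4.23 in round sperm and 7 Sertoli markers to 50.7 to 94.5 against 2.21 to 3.32 in round sperm. Their part in the levels of the PRC2 genes was not tested.

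No member was called between Piwil1-/- and WT cells in any sorted fraction. Of 6, 6, 4 and 4 members tested in SPG/PL, LZ, P and D cells none was called by limma, where 0.0166%, 0.0172%, 2.81% and 10.3% of genes were called, and the number with an unadjusted p under 0.05 was 0, 1, 0 and 0. Leaving out 1 library at a time, 1 member was called higher in LZ without WT library 2A and in D without Piwil1-/- library 1B. Rbbp7 was too low in P for the fit, at 2.27, 2.09, 1.53 and 0.807 in Piwil1-/- P (25, 21, 14 and 10 fragments) against 0.301, 0.196, 0.692 and 0.905 in WT P cells, with 1 Piwil1-/- library inside the WT range. Jarid2, not tested in the fit, measured 2.56, 1.97, 3.11 and 2.08 in Piwil1-/- D against 1.23, 1.77, 1.85 and 1.75 in WT D cells. Ezh1, also not tested in the fit, measured 0.376, 0.630, 0.840 and 0.871 against 0.342, 0.343, 0.248 and 0.126 in WT D cells. Both genes were without overlap (exact permutation test, unadjusted p = 0.0286, the smallest possible). The share of all genes without overlap is not given, so nothing further is drawn from these 2 genes. The summed level of 3 spermatid markers was 0.184 to 1.06 in Piwil1-/- D and 3.62 to 54.8 in WT D cells, and the part of this difference in the PRC2 values was not tested. The Rbbp4 share of the histone-binding pair was 61.7% in Piwil1-/- against 65.0% in WT SPG/PL cells. In P cells it was 99.5% in Piwil1-/- against 99.8% in WT, where Rbbp7 had 2 to 10 fragments. The Ezh2 share of the enzymes was 91.6% in Piwil1-/- against 96.8% in WT D cells, on 5 to 14 and 2 to 6 fragments of Ezh1. None of these shares overlapped (exact permutation test, p = 0.0286 each, adjusted p = 0.0923), and nothing further is drawn from them.

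In LZ cells the WT libraries differed among themselves. Rbbp4 measured 71.8 and 116 in the WT libraries numbered 1 and 31.2 and 45.5 in those numbered 2, and Rbbp7 8.46 and 4.32 in the pair numbered 1 and 13.6 and 15.4 in the pair numbered 2. Without the pair numbered 1, a choice made after seeing the data, no member was called in Piwil1-/- LZ cells either.

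Adult Piwil2-/- and Piwil4-/- testes had higher Rbbp7 and Ezh1 and, except for Piwil4-/- testes at the same total, lower Jarid2. Under the rescalings Jarid2 was called lower only in Piwil2-/- testes by median ratios. Rbbp7 measured 45.4 and 43 in Piwil2-/- and 44 and 52.4 in Piwil4-/- testes against 13.7 and 11.7 in WT testes. All 4 knockout libraries were above both WT libraries (3.47-fold, log2 difference 1.72, SE 0.23, adjusted p = 6.23e-06 for Piwil2-/- and 3.79-fold, 1.84, adjusted p = 3.38e-06 for Piwil4-/- by limma). Ezh1 measured 2.07 and 2.76 in Piwil2-/- and 2.19 and 2.83 in Piwil4-/- testes against 0.994 and 0.706 in WT testes (0.88, adjusted p = 0.00131, and 0.92, adjusted p = 0.000931 by limma). Jarid2 measured 1.33 and 1.16 in Piwil2-/- and 1.79 and 1.04 in Piwil4-/- testes against 3.33 and 2.97 in WT testes (-0.89, adjusted p = 0.00189, and -0.80, adjusted p = 0.00403 by limma). Ezh1 passed the filter on low values through the knockout testes alone and Jarid2 through the WT testes alone, and with no filter the adjusted p was 0.00506 and 0.00418 for Ezh1 and 0.00352 and 0.00721 for Jarid2 by limma. The call of Jarid2 in Piwil4-/- testes was lost without replicate 2 (adjusted p = 0.0561 by limma), which left 1 member called, and turned to 0.06 at the same total. The 2 comparisons share the WT testes.

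The 2 higher and 1 lower member, of which only Rbbp7 passed the filter in both groups, stand among 6 tested in each comparison, where 20.2% of 8587 genes rose and 64% fell in Piwil2-/- and 19.7% of 8545 rose and 63.2% fell in Piwil4-/- testes, with medians of all genes of -1.18 and -1.14. At the same total 5 members rose and none fell in either knockout. The cells differed too. The summed germ cell markers were 34.6 to 51 in Piwil2-/- and 27.7 to 97.2 in Piwil4-/- testes against 472 to 498 in WT testes, and the 7 Sertoli markers 175 to 186 and 157 to 187 against 32.6 to 47.5 in WT testes. How much of the PRC2 differences this composition carries was not tested. Rbbp4 made up 53.4% of Rbbp4 and Rbbp7 in Piwil2-/- and 51.7% in Piwil4-/- testes against 79.7% in WT adult testes, and 56.8% in WT testes at 3 d.p.p.

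Piwil1-/- adult testes had lower Jarid2, at 1.55 and 1.65 against 3.33 and 2.97 in WT testes (-0.67, SE 0.22, adjusted p = 0.0274 by limma), 1 of 5 members tested where 28.7% of 8289 genes fell. Jarid2 passed the filter through the WT testes alone (adjusted p = 0.0344 by limma with no filter). The call was lost without either Piwil1-/- library (adjusted p = 0.0898 and 0.0572 by limma), and without either WT library Jarid2 failed the filter on low values and no member was called. Rbbp4, at 66 and 81.6 against 52 and 48.0 in WT testes, and Rbbp7, at 19.7 and 18.2 against 13.7 and 11.7 in WT testes, lay above both WT libraries without being called (adjusted p = 0.05 and 0.0797 by limma), and both were called higher under both rescalings, while Jarid2 was not called at the same total. The 3 spermatid markers summed to 0.534 to 0.561 in Piwil1-/- against 849 to 1680 in WT testes. In Piwil3-/- adult testes none of 5 members was called, against 6.31% of 8131 genes, and 1 had an unadjusted p under 0.05.

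**Figure D5:**
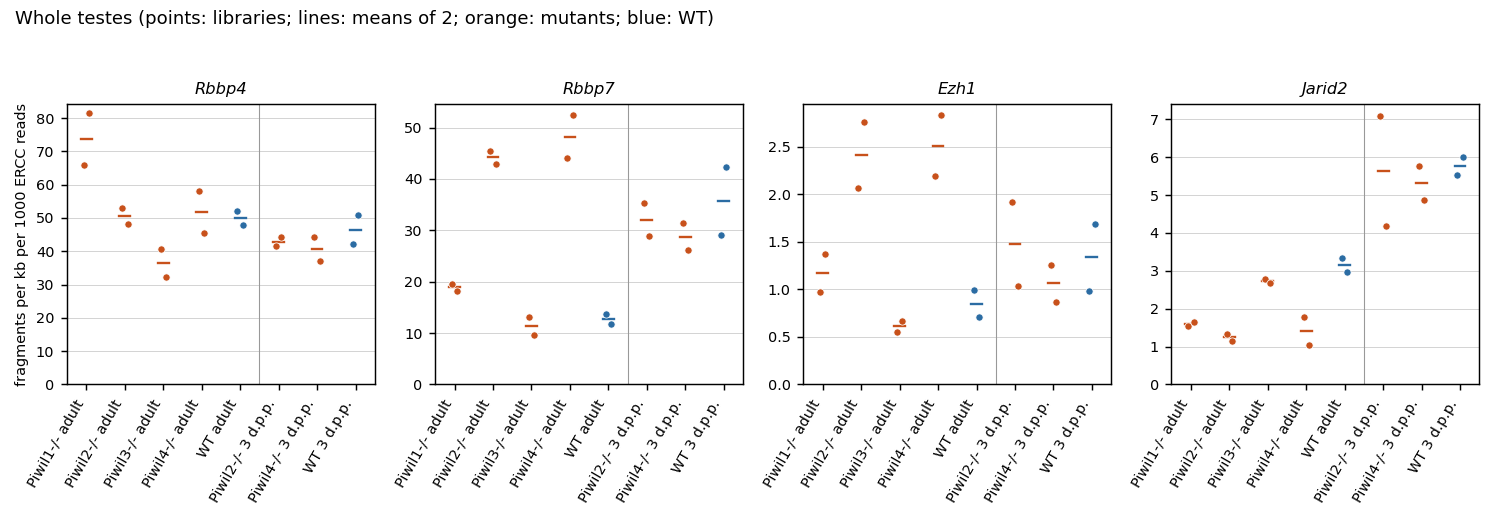
Levels of Rbbp4, Rbbp7, Ezh1 and Jarid2 (fragments per kb per 1000 spike-in reads; linear axis) in each whole-testis library, knockouts left of WT within adult and 3 d.p.p. samples; each point is 1 library and the line is the group mean. Rbbp7 lies at 43 to 52.4 in Piwil2-/- and Piwil4-/- adult testes and at 11.7 to 13.7 in WT adult testes.

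In WT testes Rbbp7 and Jarid2 also differed with age. In adult against 3 d.p.p. WT testes, Rbbp7 fell to 13.7 and 11.7, against 29.1 and 42.4 at 3 d.p.p. (-1.40, adjusted p = 4.74e-05), and Jarid2 fell to 3.33 and 2.97, against 5.52 and 5.99 at 3 d.p.p. (-0.71, adjusted p = 0.0092 by limma). These were 2 of 5 members tested, where 15.8% of 8528 genes fell, and the median of all genes was 1.3. Under both rescalings Eed, Rbbp4 and Ezh2 fell as well. The call of Jarid2 was lost without adult WT replicate 2 (adjusted p = 0.0506 by limma), which left 1 member called, and without adult WT replicate 1 3 were called. The 6 germ cell markers summed to 472 to 498 in adult and 26.8 to 29.5 in 3 d.p.p. testes, and the 7 Sertoli markers to 32.6 to 47.5 in adult and 188 to 261 in 3 d.p.p. testes. Their part in the age differences was not tested.

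At 3 d.p.p. Ezhip was called in Piwil2-/- testes, at 0.201 and 0.151 (7 and 9 fragments) against 0 in both WT testes, where 0 fragments allow up to 0.0773 and 0.103. It was 1 of 10 members, where 0.197% of 21353 genes rose (log2 difference 0.23, SE 0.03, adjusted p = 0.0118 by limma), and no member was called when no other group entered the fit or without WT replicate 2 (adjusted p = 0.0535 by limma). Ezhip entered the fit only through the Piwil2-/- libraries and failed the filter without either of them, so this call is given as a description (adjusted p = 0.0116 by limma with no filter). In Piwil4-/- testes at 3 d.p.p. it had 3 and 2 fragments, and no member was called, against 0.303% of 21463 genes, with 1 at an unadjusted p under 0.05. The other members overlapped or were not called in both knockouts at this age.

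Of the listed Polycomb genes outside the 10, most of those tested fell in adult Piwil2-/- and Piwil4-/- testes, as did the median gene. In adult Piwil2-/- testes 11 of 12 PRC1 genes tested fell and none rose, where 64% of all genes fell, and in Piwil4-/- testes 10 of 13 fell, where 63.2% did. Phf1, an accessory PRC2 subunit that reads H3K36 methylation, averaged 2.49 ± 0.283 in Piwil2-/- and 3.08 ± 1.12 in Piwil4-/- against 21.7 ± 2.96 in WT testes (SD, n = 2 each; adjusted p = 1.05e-07 and 2.6e-07 by limma). In WT P cells Phf1 averaged 63.6 ± 15.4 against 2.08 ± 0.622 in SPG/PL cells (SD, n = 4 each; log2 difference 4.38, adjusted p = 2.94e-16 by limma), and 11 of 15 PRC1 genes rose while Scml2 and Cbx2 fell, near the 76.8% and 13.9% of all genes. In Piwil1-/- D cells 1 of 14 PRC1 genes tested, Pcgf2, fell, where 1.89% of all genes did (1.73 ± 0.315 against 3.20 ± 0.522 in WT, SD, n = 4 each; adjusted p = 0.0138 by limma).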

How the data were processed

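Smart-seq2 reads were trimmed (Trim Galore 0.5.0), aligned to the BCM_Maur_2.0 build (STAR 2.9) and summed per gene by the authors (featureCounts 1.6.4), with multi-mapping reads kept, so fragments of near-identical copies may count for a gene. The deposited values of 3 tables are a ratio of fragments per kilobase to ERCC spike-in reads, and the scale of 10000 or 1000 reads was read from the values, which were whole fragments for every member value checked (tolerance 0.08). The deposited stage series is in FPKM, and which total it uses is not given in the sources used here. All 36133 IDs matched a symbol. Over all tables, 2 columns matched no sample and were not used.

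Differences were fitted with limma 3.58.1 (R 4.3.3; eBayes with trend) on log2(value + 1), all groups of an experiment together, after keeping genes above 2 in at least 40% of the libraries compared, or above 0 where fewer than 5000 genes passed. P-values were adjusted by Benjamini-Hochberg over all genes tested in each of 29 comparisons, and genes were called at 0.05. The steps were tested on simulated data. Single values and shares were compared by exact two-sided permutation tests (scipy 1.17.1), for the shares adjusted over 42 tests. The labels do not say which libraries share an animal, so p-values measure only the spread between these libraries, which may be technical. Limits at 0 fragments allow 3 fragments and cover counting error only.

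The members, the pathway and marker lists and the tests were chosen with earlier results of these data known. All 10 members are named, with up to 2 called genes per direction of each list by size of difference, the PIWI genes as a label check, and the 5 genes most like Ezhip, and like the member of widest range in sorted cells, by Pearson r. Only between WT P and D cells did every same-numbered pair deviate together at r of 0.157 or more (4 pairs, up to 0.344). No source says what the numbers mark. Alternatives were another pseudocount, no filter, rescaling to the same total or by median ratios, only the groups compared, a replicate block, A and B libraries merged, the other WT MII set and leaving out libraries. Small RNA libraries of the series were not used here.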

Additional observations from a re-analysis of the deposited data

Results flagged for a closer look

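In all, 4 single libraries stood far from the others of their group, out of 81 pairs of a PRC2 gene and a group of 4 or 5 libraries tested, where chance gives about 5%. Suz12 was 32.7 in Piwil3-/- MII replicate 5 against 7.11 to 9.05 in the other 3 Piwil3-/- MII oocytes. Eed was 95.8 in maternal Piwil3-/- replicate 1 at 11 h against 51.9 to 56.7 in the other 4. Jarid2 was 2.58 in WT LZ library 1A against 2.91 to 2.98 in the other WT LZ libraries. Aebp2 was 3.08 in WT P library 2B against 1.6 to 1.74 in the other WT P libraries.

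The change over time differed between maternal Piwil3-/- and WT embryos, by the interaction in limma, for 7 results. Between 11 and 34 h the difference of the changes was 1.66 for Rbbp4. Between 34 and 54 h it was -3.05 for Rbbp4, -2.93 for Ezh2, -2.91 for Eed, -2.83 for Aebp2, -2.63 for Suz12 and -2.38 for Jarid2. The Aebp2 value rests on a WT group at 0 fragments in all 4 libraries at 34 h, so its size depends on the pseudocount.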

How the results depend on the processing

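For WT MII against GV oocytes, rescaling to the same total and by median ratios turned the direction of Ezhip (1.28 and 1.49), Ezh2 (1.42 and 1.63), Rbbp4 (1.58 and 1.79), Rbbp7 (1.16 and 1.37), Jarid2 (0.41 and 0.61), Aebp2 (0.92 and 1.09) and Phf19 (0.35 and 0.55), and median ratios that of Eed (0.039), leaving 1 member called each. Ezh1 turned between 34 and 11 h in WT (0.54 and 0.66), Rbbp4 between 54 and 34 h in WT (-0.21 and -0.017), Eed between WT P and SPG/PL cells (-1.22 and -0.89), and Jarid2 in Piwil4-/- adult testes at the same total (0.056). Under the same total and median ratios the counts of called members were 0 and 0 for Piwil3-/- MII oocytes, 1 and 1 for maternal Piwil3-/- embryos at 54 h, 0 and 0 for WT 11 h against MII, 6 and 4 for the interaction of 11 and 34 h, 1 and 2 for Piwil4-/- MII oocytes, 2 and 3 for Piwil1-/-, 5 and 5 for Piwil2-/- adult testes, 5 and 5 for WT adult against 3 d.p.p. testes, and 4 and 3 for WT D against P cells. At the same total they were 3 for WT 54 against 34 h and 5 for Piwil4-/- adult testes. With no other group in the fit the counts were 0 for Piwil3-/- MII oocytes, 2 at 34 h, 0 at 54 h, 0 for Piwil2-/- testes at 3 d.p.p. and 2 for WT D against P cells. A pseudocount of 0.1 gave 0 for Piwil3-/- MII oocytes and for WT 11 h against MII, and 4 for the interaction of 11 and 34 h. Without the libraries titled 8PEA the counts were 1 for maternal Piwil3-/- embryos at 11 h and 2 for WT 11 h against MII. The other WT set gave 2 for Piwil2-/- MII oocytes, and no filter gave 8 for WT P against SPG/PL cells. The cause of each change was not tested.

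Of the shares of all called genes that were higher, rescaling moved that of Piwil1-/- adult testes to 60.2% and 28.7% (20.2% on the spike-in scale), of Piwil2-/- adult testes to 46.4% and 35.2% (24%), of Piwil4-/- adult testes to 46.8% and 35.7% (23.8%), of WT P against SPG/PL cells to 50.1% and 59.1% (84.7%) and of WT D against P cells to 41% and 52.2% (86.2%).

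Leaving out 1 library gave counts of called members of 1 to 2 for Piwil3-/- MII oocytes, 0 to 1, 3 to 6 and 3 to 4 for maternal Piwil3-/- embryos at 11, 34 and 54 h, 7 to 8 for WT MII against GV, 1 to 2 for WT 11 h against MII, 4 to 7 for WT 54 against 34 h, and 1 to 2 and 5 to 7 for the interactions. It gave 0 to 1 for Piwil1-/-, 2 to 2 for Piwil2-/- and 1 to 3 for Piwil4-/- adult testes, 0 to 1 for Piwil2-/- testes at 3 d.p.p., 1 to 3 for WT adult against 3 d.p.p. testes, 0 to 1 for Piwil1-/- LZ and for Piwil1-/- D cells, 4 to 6 for WT P against SPG/PL cells, and 1 to 5, 3 to 5 and 3 to 7 for the successive steps of the stage series. Where a group of 2 lost a library, the lone sample was assumed to vary like the other groups.

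Outside WT P and D cells, the deviations of same-numbered samples correlated at -0.421 to 0.253, and whether such samples share an animal is not known. A replicate block gave 2 called members for WT 11 h against MII (Rbbp7 and Suz12), 4 at 34 h and 9 for WT MII against GV, and it ended the call of Rbbp7 at 34 h (adjusted p = 0.0555 by limma) and of Rbbp4 between WT MII and GV. It changed no call of WT D against P cells, where Eed was at -0.998 (adjusted p = 0.000533 by limma). Apart from left-out libraries, 411 values of named genes kept their direction and side of the threshold, 55 were no longer called and 22 turned. With A and B libraries merged, all 6 values so fitted kept their direction and side of the threshold. The shares were not tested with A and B merged. Depth limits Rbbp7 in P and D cells, Ezhip in the male germ line, and Aebp2, Jarid2 and Phf19 in embryos at 34 h, where WT values rest on 0 to 46 fragments for the first 2.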

Other observations

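Over the 43 oocyte and embryo libraries, the named genes whose level followed that of Ezhip most closely, among 6135 with a mean of at least 5, were Cenpf (Pearson r 0.993 of log2(value + 1)), Sfmbt1 (0.991), Taok3 (0.991), Als2cl (0.991) and Mageb16 (0.99). Cenpf encodes a kinetochore protein. All these libraries share the fall between 11 and 34 h, and no p is given.

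Of the other members, Rbbp7 had the widest range of group means in the sorted cells, at 5.16 on the log2 scale. Over the 30 sorted libraries the genes closest to it, among 4918, were Ppp1r15a (r 0.991), Riox2 (0.989), Rpl10 (0.988), Hmgn1 (0.987) and Mfge8 (0.987). Rpl10 encodes a ribosomal protein and Hmgn1 a nucleosome-binding protein.

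In Piwil4-/- MII oocytes, 1 of 13 PRC1 genes tested rose and 1 fell by limma, where 2.76% of all genes rose and 17.7% fell. Cbx7, a chromodomain subunit that binds methylated H3K27, averaged 115 in Piwil4-/- and 47.2 in WT MII oocytes of the second set. Rnf2 averaged 153 ± 29 in Piwil4-/- and 397 ± 38.9 in WT (SD, n = 2 and 3; adjusted p = 0.00269 by limma).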
